A study of Mus musculus with 27 samples.

Results

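Otx1, Otx2 and Crx are the OTX-class homeodomain transcription factors of the mouse, and their mRNA was followed across retinal and brain libraries. The members are the 3 genes of that name among 30735 in the count table, and they comprise 16 of its 88198 transcripts (3 for Otx1, 8 for Otx2 and 5 for Crx), summed per gene. All 27 libraries were used, 18 from retina and 9 from brain, all from C57Bl/6 mice.

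Otx proteins bind DNA through a paired-type homeodomain and are known for patterning the anterior head and brain in the embryo. In the retina, Otx2 is required in newly postmitotic cells for photoreceptor fate, and Crx, which Otx2 activates, drives the genes of rods and cones. Otx2 is also expressed in bipolar cells, retinal pigment epithelium, choroid plexus and midbrain, and Otx1 is best known from deep-layer cortical neurons. Brn3a and Brn3b, the genes altered in the retinal samples, encode POU-domain factors of retinal ganglion cells, the neurons that connect the eye to the brain.

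Retinal cells were dissociated and bound to magnetic beads coated with an antibody to alkaline phosphatase (AP), which is expressed from a knock-in allele of Brn3a or Brn3b. At postnatal day 3 (P3) the bead-bound, AP-positive fraction came from Brn3a AP/KO mice (called KO, 2 libraries), Brn3a AP/WT mice (called HET, 2 libraries), Brn3b AP/KO mice (2 libraries) and Brn3b AP/WT mice (2 libraries). At embryonic day 15 (E15) it came from Brn3b AP/KO and Brn3b AP/WT mice, again with 2 libraries each. All these animals carried the AP allele, the HET animals included, so none of the retinal controls was wild type. The unbound supernatant of the same purifications gave 4 libraries at P3, 1 per genotype, and 2 at E15, 1 per Brn3b genotype. Brain tissue came from wild-type P3 pups whose eyes had been injected with labelled cholera toxin. It comprised superior colliculus (SC, 3 libraries), lateral geniculate nucleus (LGN, 3 libraries), pretectal area (1 library) and the remaining brain sections, pooled (2 libraries). The labels call that last tissue whole brain. Whether animals were pooled, and whether replicates came from separate animals, is not given in the sources used here, so the p-values measure only the spread between these libraries.

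All 3 genes lie on the minus strand of build GRCm38 (GENCODE annotation). Otx1 (ENSMUSG00000005917) is at chr11:21994764-22002897, Otx2 (ENSMUSG00000021848) at chr14:48657677-48673819 and Crx (ENSMUSG00000041578) at chr7:15865947-15879968. The 5′ part of Otx2 overlaps the antisense lincRNA Otx2os1 (chr14:48668708-48870683), which has no row of its own in the count table. None of the 8 counted Otx2 transcripts reaches that overlap, as the one that starts furthest 5′, Otx2-004, starts at position 48667644. The neighbour Crxos (chr7:15882617-15904020, plus strand) does not overlap Crx and stayed between 0.0862 and 7.57 CPM (counts-per-million) in every library.

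The core sequence that Crx and Otx proteins prefer, TAATCC, which reads GGATTA on the other strand, was searched on both strands in the 250 bases before RefSeq gene starts (build GRCm38.p6). The windows of 1 chromosome were left out of the search. Of the remaining 27025 genes with such a window, 7.21% held the 6 letters at least once. In a list of phototransduction and outer segment genes, 12 of the 28 genes with a window held it (42.9%), and in a list of photoreceptor regulators, 4 of 16 (25%). In the ganglion cell list it was 1 of 10 (10.0%), and in a list of midbrain and isthmus regulators 1 of 21 (4.76%). A list of retinal pigment epithelium genes had the highest share, 5 of 11 (45.5%), and a list of bipolar cell genes had 3 of 13 (23.1%). The amacrine and horizontal cell list had 2 of 16 (12.5%) and the choroid plexus list 0 of 11. These are matches to letters, counted once per gene, and not measured binding sites.

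Otx1 had no such window and was not searched. The Crx window held 2 matches, and 1 of the 4 Otx2 windows held 1. The sequences below show them, together with those of Rbp3 (interphotoreceptor retinoid-binding protein) and Sag (rod arrestin), photoreceptor genes with 1 match each that were chosen after their values were seen. All run 5′ to 3′ on the strand of the gene, the capitals mark the 6-base match, and the Rbp3 and Sag sequences end at the base before the RefSeq start. The Crx sequence ends at the base before the GENCODE start and leaves off the last 13 bases before the RefSeq start, and for Otx2 a short stretch around the match is given. Crx is chr7:15879969-15880205 (minus strand), Otx2 is chr14:48665305-48665330 (minus), Rbp3 is chr14:33953753-33954002 (plus) and Sag is chr1:87803430-87803679 (plus).
Crx: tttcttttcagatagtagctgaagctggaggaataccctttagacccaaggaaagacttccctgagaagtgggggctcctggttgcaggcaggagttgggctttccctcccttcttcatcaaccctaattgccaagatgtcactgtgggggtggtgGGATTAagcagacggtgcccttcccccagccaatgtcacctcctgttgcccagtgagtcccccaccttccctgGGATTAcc
Otx2: tgtgcccctcGGATTAtctcgttagt
Rbp3: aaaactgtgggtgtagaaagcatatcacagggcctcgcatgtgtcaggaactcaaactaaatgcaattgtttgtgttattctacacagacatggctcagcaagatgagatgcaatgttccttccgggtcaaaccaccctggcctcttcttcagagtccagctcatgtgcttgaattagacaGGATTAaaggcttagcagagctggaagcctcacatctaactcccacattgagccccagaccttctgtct
Sag: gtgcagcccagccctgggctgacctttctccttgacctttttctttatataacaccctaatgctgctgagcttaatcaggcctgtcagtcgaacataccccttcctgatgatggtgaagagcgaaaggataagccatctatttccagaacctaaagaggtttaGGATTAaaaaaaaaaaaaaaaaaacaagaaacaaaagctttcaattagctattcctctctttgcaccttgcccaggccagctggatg

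Retinal libraries held 28905675 to 37394655 estimated counts and brain libraries 10122962 to 13769685. The targeted genes followed the labels. Pou4f1 (Brn3a) stood at 11 to 16.7 CPM in Brn3a KO cells, against 444 to 486 CPM in Brn3a HET cells. Pou4f2 (Brn3b) stood at 18.6 to 21.0 CPM in Brn3b KO cells at P3 and 63.1 to 65.7 CPM at E15, against 190 to 289 CPM and 224 to 325 CPM in the matching HET cells. The second Brn3a KO library carries a Brn3b genotype entry beside a Brn3a title, and its low Pou4f1 count goes with the title, which was followed. The ganglion cell list was chosen with earlier results of these data known, so it is no independent check of the sort. All 18 of its genes were higher in Brn3a AP-positive cells than in unbound P3 cells (background 30.9% of genes higher). All 18 were also higher in Brn3b AP-positive cells (background 16.8%). The same was true of all 14 genes of a microglia and macrophage list in both comparisons. The median log2 difference of the microglia and macrophage list was 8.37 in Brn3a and 7.32 in Brn3b AP-positive cells. That of the ganglion cell list was smaller, at 2.96 in Brn3a and 1.502 in Brn3b AP-positive cells. In these bulk libraries, fewer cells of a type and less RNA per cell cannot be told apart.

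At P3, Otx2 and Crx mRNA was 3.84 and 3.59 times as abundant in Brn3b AP-positive cells as in Brn3a AP-positive cells. Otx2 stood at 922 and 671 CPM in Brn3b KO cells and 684 and 500.1 CPM in Brn3b HET cells, against 74.5 and 321 CPM in Brn3a KO cells and 168 and 159 CPM in Brn3a HET cells. Each of the 4 Brn3b libraries was above each of the 4 Brn3a libraries, and the Brn3a KO replicates stood far apart, on both sides of the HET pair. Crx, which maintains photoreceptor gene expression, stood at 1301 and 935 CPM in Brn3b KO cells and 989 and 772 CPM in Brn3b HET cells, against 106 and 473 CPM in Brn3a KO cells and 267 and 267 CPM in Brn3a HET cells. Again the 2 sets of 4 libraries did not overlap, and the same Brn3a KO library was low for both genes. Across the 4 libraries each, Otx2 averaged 694 ± 173 CPM in Brn3b and 181 ± 103 CPM in Brn3a AP-positive cells (SD), a log2 difference of 1.94 ± 0.37 (SE; adjusted p = 0.00271). Crx averaged 999 ± 221 CPM in Brn3b and 278 ± 150 CPM in Brn3a AP-positive cells (SD), a log2 difference of 1.84 ± 0.37 (SE; adjusted p = 0.00339). Of all 16673 genes tested, 44.8% passed in this comparison, so a call on its own is common here. Without the second Brn3a KO library the differences were 2.63 for Otx2 and 2.55 for Crx (adjusted p = 0.000154 each). The comparison of Brn3b with Brn3a cells was chosen after the values were seen. Otx1 differed by 0.50 ± 0.46 on the log2 scale and did not pass (adjusted p = 0.409).

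**Figure D1:**
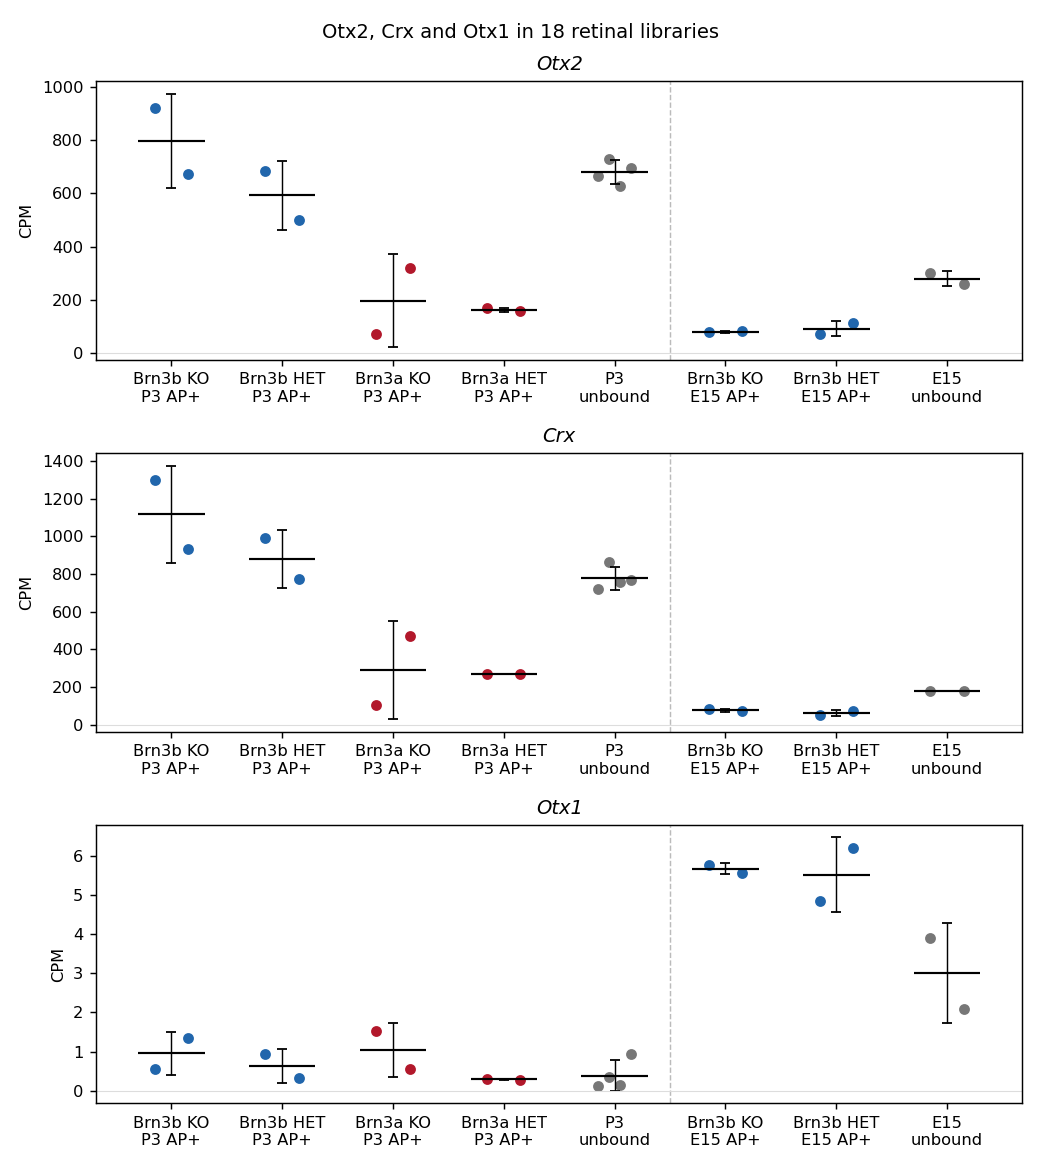
CPM of Otx2, Crx and Otx1 (linear axes, 1 panel per gene) in each of the 18 retinal libraries; points are libraries, the line is the group mean and the bar its SD (n = 2, or 4 for unbound P3), with P3 left and E15 right of the dashed line. At P3 the Brn3b AP-positive libraries of Otx2 (500.1 to 922 CPM) lie above those of Brn3a (74.5 to 321 CPM), and every P3 library of Otx1 lies below every E15 library.

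Set against unbound cells of the same age, the Brn3a and Brn3b fractions differed for these genes. Otx2 stood at 666, 730, 627 and 695 CPM in the unbound P3 libraries (mean 679 ± 43.9, SD), and Crx at 719, 863, 758 and 770.0 CPM (mean 778 ± 61.0, SD). All 4 Brn3a AP-positive libraries were below all 4 unbound libraries for both genes. The Brn3b AP-positive libraries overlapped the unbound ones for both. In Brn3a AP-positive cells Otx2 fell by 1.92 ± 0.32 on the log2 scale (SE; adjusted p = 0.000122) and Crx fell by 1.48 ± 0.31 (adjusted p = 0.000888), in a comparison where 62.6% of genes passed. Without the second Brn3a KO library these were -2.65 and -2.23. In Brn3b AP-positive cells Otx2 differed from unbound cells by 0.02 ± 0.31 (95% interval -0.64 to 0.67; adjusted p = 0.983). Crx differed by 0.35 ± 0.31 (95% interval -0.31 to 1.01; adjusted p = 0.421), where 29.6% of genes passed. These fractions were split after the values were seen, and they share the unbound libraries. With all 8 AP-positive libraries pooled, as first planned, Otx2 fell by 0.95 ± 0.26 on the log2 scale against unbound cells (adjusted p = 0.00641). Crx was at -0.57 ± 0.26 and did not pass (adjusted p = 0.08; 55% of genes passed). Without the second Brn3a KO library the Crx difference was -0.95 (adjusted p = 2.15e-05), and without the first Brn3a KO library it was -0.41 (adjusted p = 0.0105).

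Taken by genotype, KO against KO gave the same direction. Brn3b KO cells exceeded Brn3a KO cells by 2.03 ± 0.52 on the log2 scale for Otx2 (SE, n = 2 each; edgeR adjusted p = 0.0148) and by 1.97 ± 0.52 for Crx (edgeR adjusted p = 0.0167), where 36% of genes passed. Both calls were lost without the first Brn3b KO library, at 1.76 for Otx2 (edgeR adjusted p = 0.0728) and 1.69 for Crx (edgeR adjusted p = 0.082). The size differed with the Brn3a KO library used. Without the first, the differences were 1.32 for Otx2 and 1.25 for Crx, and without the second they were 3.40 and 3.38. Brn3b HET cells exceeded Brn3a HET cells by 1.86 ± 0.52 for Otx2 and 1.72 ± 0.52 for Crx. Neither passed in the planned fit (edgeR adjusted p = 0.0658 and 0.0762; 3.85% of genes passed), although both HET pairs were separate, with every Brn3b value above every Brn3a value. DESeq2 called both HET differences (adjusted p = 0.0145 for Otx2 and 0.0229 for Crx).

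Loss of Brn3a or of Brn3b was not accompanied by a called difference in any of the 3 genes, by edgeR or by DESeq2, and at an unadjusted p under 0.05 it was 1 of them, Otx1 in Brn3a KO cells. Between Brn3a KO and Brn3a HET cells, Otx2 differed by 0.27 ± 0.50 on the log2 scale (95% interval -0.86 to 1.4) and Crx by 0.11 ± 0.50 (95% interval -1.01 to 1.24), with 0.018% of all genes passing. The sign rested on the Brn3a KO library used: without the second, Otx2 was at -1.11 and Crx at -1.30, and without the first at 0.95 and 0.81. Between Brn3b KO and Brn3b HET cells at P3, Otx2 differed by 0.44 ± 0.50 (95% interval -0.68 to 1.57) and Crx by 0.36 ± 0.50 (95% interval -0.77 to 1.48), with 3.41% of genes passing. At E15 the Brn3b KO difference was -0.20 ± 0.51 for Otx2 (95% interval -1.33 to 0.93) and 0.33 ± 0.51 for Crx (95% interval -0.81 to 1.46), with 1.85% passing. The adjusted p-values of these 6 differences lay between 0.677 and 1 (edgeR). The intervals reach past a doubling in both genes at P3 and in Crx at E15, and that of Otx2 at E15 reaches down to -1.33. Changes of that size were therefore not excluded with 2 libraries a group. The difference between the KO effects of Brn3b and Brn3a at P3 was 0.17 ± 0.71 for Otx2 and 0.24 ± 0.71 for Crx, and neither passed (0.012% of genes passed). The difference between the Brn3b KO effects at P3 and at E15 was 0.64 ± 0.71 for Otx2 and 0.03 ± 0.71 for Crx, and neither passed (0.192% of genes passed).

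Among AP-positive cells, Otx2 and Crx differed most between the ages. In Brn3b AP-positive cells Otx2 stood at 500.1 to 922 CPM at P3, against 78.4 and 83.7 CPM in KO cells and 72.4 and 114 CPM in HET cells at E15. Crx stood at 772 to 1301 CPM at P3, against 81.1 and 71.5 CPM in KO cells and 49.7 and 72.0 CPM in HET cells at E15. The ages did not overlap for either gene. In Brn3b HET cells Otx2 rose 6.39-fold at P3 over E15 (log2 2.68 ± 0.54, edgeR adjusted p = 0.00552) and Crx rose 14.5-fold (log2 3.86 ± 0.57, edgeR adjusted p = 0.00117; 28.8% of genes passed). In Brn3b KO cells Otx2 rose 9.97-fold (log2 3.32 ± 0.55, edgeR adjusted p = 0.00222) and Crx rose 14.9-fold (log2 3.89 ± 0.57, edgeR adjusted p = 0.00114; 25.4% of genes passed).

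Unbound cells showed the same order of ages with smaller differences. Otx2 stood at 627 to 730 CPM at P3, against 300.0 and 261 CPM at E15, a log2 difference of 1.28 ± 0.40 (edgeR adjusted p = 0.0249). Crx stood at 719 to 863 CPM at P3, against 178 and 179 CPM at E15, a log2 difference of 2.12 ± 0.42 (edgeR adjusted p = 0.00182; 33.1% of genes passed). The Otx2 call was lost without the E15 unbound library of the Brn3b HET genotype (log2 difference 1.42, edgeR adjusted p = 0.104) or that of the Brn3b KO genotype (1.22, edgeR adjusted p = 0.11).

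At E15 the AP-positive cells held less of both mRNAs than the unbound cells. Otx2 fell by 1.69 ± 0.36 on the log2 scale (edgeR adjusted p = 0.00605) and Crx fell by 1.39 ± 0.36 (edgeR adjusted p = 0.015), with 26.3% of genes passing. All 4 AP-positive libraries were below both unbound libraries for each gene. Without the unbound Brn3b HET library neither passed (edgeR adjusted p = 0.0807 for Otx2 and 0.128 for Crx), and without the first Brn3b HET AP-positive library Crx did not pass (edgeR adjusted p = 0.0575). With the Brn3a and Brn3b fractions pooled at P3, while E15 held Brn3b cells alone, the AP-positive against unbound difference was nearer 0 at P3 than at E15, -0.95 against -1.69 for Otx2 and -0.57 against -1.39 for Crx. The P3 minus E15 difference of that effect, 0.74 ± 0.46 for Otx2 and 0.83 ± 0.46 for Crx, did not pass (edgeR adjusted p = 0.292 and 0.236; 17.5% of genes passed). Without the first Brn3a KO library both passed, at 0.87 for Otx2 (edgeR adjusted p = 0.0175) and 0.96 for Crx (edgeR adjusted p = 0.00716). With Brn3b AP-positive cells alone at both ages, a comparison added after the data were seen, the difference was 1.71 ± 0.48 for Otx2 (edgeR adjusted p = 0.0481) and 1.74 ± 0.48 for Crx (edgeR adjusted p = 0.0445), where 6.87% of genes passed. Both values lie just inside the threshold. They stayed there without the second Brn3b HET library at E15. Both calls were lost without any other single library of the compared groups, at 1.52 to 1.78 for Otx2 and 1.58 to 1.82 for Crx. The Brn3a AP-positive libraries, which are part of the same fit, were not left out for this comparison.

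**Figure D2:**
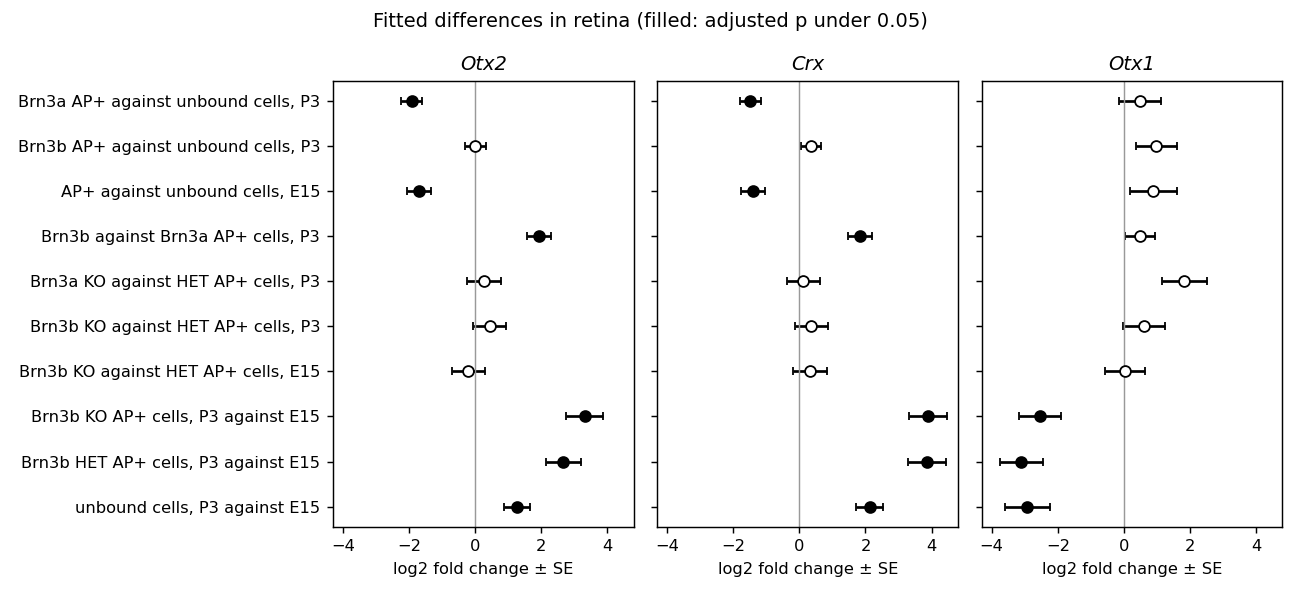
Log2 difference of each gene in 10 retinal comparisons (first named group over second), with bars of 1 SE from edgeR; filled points passed an adjusted p of 0.05. The KO against HET points are open for all 3 genes, whereas the 3 age comparisons are filled for all 3 genes, above 0 for Otx2 and Crx and below 0 for Otx1.

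By group mean, Otx2 ran in the order Brn3b KO P3 (796 ± 177 CPM), unbound P3 (679 ± 43.9), Brn3b HET P3 (592 ± 130), unbound E15 (280.5 ± 27.5), Brn3a KO P3 (198 ± 174), Brn3a HET P3 (164 ± 6.61), Brn3b HET E15 (93.1 ± 29.4) and Brn3b KO E15 (81.0 ± 3.69; SD, n = 2 each and 4 for unbound P3). The first 3 of these overlapped as neighbours, and the wide Brn3a KO pair overlapped every group below it and unbound E15. Crx ran in the order Brn3b KO P3 (1118 ± 259 CPM), Brn3b HET P3 (881 ± 153), unbound P3 (778 ± 61.0), Brn3a KO P3 (290 ± 260), Brn3a HET P3 (267 ± 0.513), unbound E15 (179 ± 0.361), Brn3b KO E15 (76.3 ± 6.79) and Brn3b HET E15 (60.8 ± 15.8). The top 3 again overlapped as neighbours, as did the 2 E15 AP-positive groups, and the Brn3a KO pair spanned both Brn3a HET and unbound E15 cells.

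The ratio of Otx2 to Crx was lower in P3 than in E15 libraries. The ratio of Otx2 CPM to Crx CPM was 0.594 to 0.925 in the 12 P3 libraries, against 0.967 to 1.68 in the 6 E15 libraries, with no overlap. Within P3 it was 0.594 to 0.718 in the 8 AP-positive libraries, against 0.827 to 0.925 in the 4 unbound ones. Within E15 it was 0.967 to 1.58 in the 4 AP-positive libraries, against 1.46 and 1.68 in the 2 unbound ones, where the fractions overlapped. Levels per kb of transcript, the scale on which genes can be compared, gave a ratio of 0.857 to 1.35 at P3, against 1.31 to 2.48 at E15, so the ages overlapped slightly on that scale. On it, unbound P3 cells held 369 ± 27.5 CPM per kb of Otx2, 295 ± 31.8 of Crx and 0.132 ± 0.145 of Otx1 (SD, n = 4). These ratios are a description and were given no test.

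**Figure D3:**
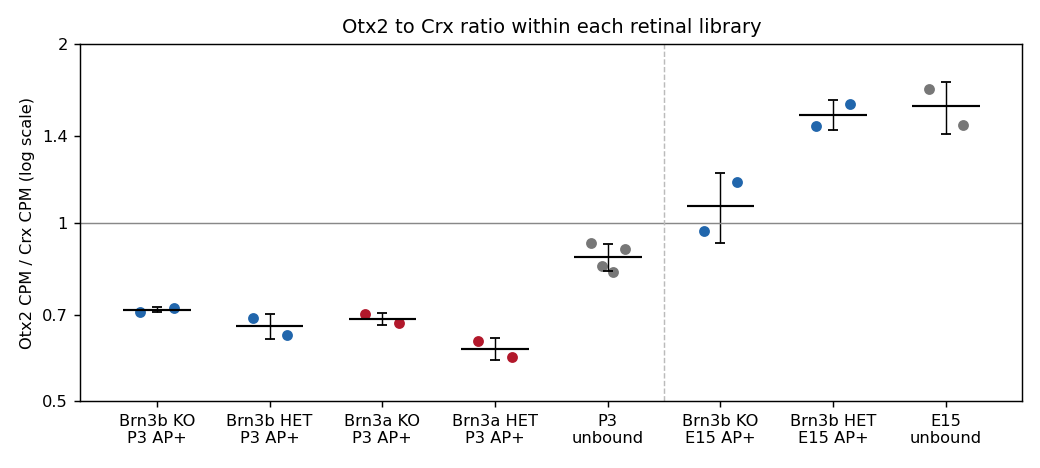
Otx2 CPM divided by Crx CPM (log axis) in each of the 18 retinal libraries; points are libraries, the line is the group mean and the bar its SD. All P3 libraries lie between 0.594 and 0.925 and all E15 libraries between 0.967 and 1.68.

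Most other listed regulators of photoreceptor fate were also higher in Brn3b than in Brn3a AP-positive cells at P3. In Brn3b against Brn3a AP-positive cells, 14 of the 19 listed regulators were higher and 1 was lower, where 22.4% of all genes were higher and 22.4% lower. The list's median log2 difference was 1.24, against 0.01 for all genes. Prdm1, a repressor that stabilises photoreceptor over bipolar fate, averaged 376 CPM in Brn3b and 89.2 CPM in Brn3a cells (log2 difference 2.06 ± 0.29, adjusted p = 0.00083). Neurod4, a proneural bHLH factor, averaged 1222 CPM in Brn3b and 255 CPM in Brn3a cells (2.26 ± 0.35). Neurod1, a related factor that photoreceptors need, averaged 1018 CPM in Brn3b and 255 CPM in Brn3a cells (1.99 ± 0.32). Nrl, the leucine zipper factor that sets rod fate, averaged 563 CPM in Brn3b and 190 CPM in Brn3a cells (1.58 ± 0.44). The exception was Isl2, a LIM-homeodomain factor also made by ganglion cells, at 5.99 CPM in Brn3b and 52.4 CPM in Brn3a cells (-3.14 ± 0.49).

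Among 40 tested phototransduction and outer segment genes, 28 were higher in Brn3b than in Brn3a AP-positive cells and none was lower, where 22.4% of all genes were higher and 22.4% lower (median log2 difference of the list 1.5). Gnat2, the cone transducin subunit, averaged 43.0 CPM in Brn3b and 8.70 CPM in Brn3a cells (2.34 ± 0.37). Pde6c, the cone phosphodiesterase, averaged 14.6 CPM in Brn3b and 2.64 CPM in Brn3a cells (2.45 ± 0.44). Rbp3, whose upstream sequence is shown above, averaged 1599 CPM in Brn3b and 491 CPM in Brn3a cells (1.71 ± 0.32), and Sag averaged 452 CPM in Brn3b and 188 CPM in Brn3a cells (1.28 ± 0.44). The count of 28 ranged from 15 to 37 when 1 library was left out. It was 15 without the first Brn3a HET, the first Brn3b HET or the first Brn3b KO library, and 17 without the second Brn3a HET library.

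Against unbound P3 cells, 15 of the 19 regulators were lower in Brn3a AP-positive cells and 3 were higher (Isl2, Rxrg and Sall3), where 31.7% of genes were lower and 30.9% higher. Prdm1 was at -2.05 ± 0.26, Neurod4 at -2.10 ± 0.30 and Neurod1 at -1.78 ± 0.28 on the log2 scale. Of the phototransduction genes, 16 of 40 were lower and 1 was higher, Gnb1, a G protein subunit used in many cells. The count of 16 was 37 without the second Brn3a KO library, the higher of that pair for Otx2 and Crx. In Brn3b AP-positive cells, 3 of the 19 regulators were higher and 2 lower than in unbound cells, where 16.8% of genes were higher and 12.7% lower. Of the phototransduction genes, 5 of 40 were higher there, a count that ranged from 1 to 18 over the alternatives.

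**Figure D4:**
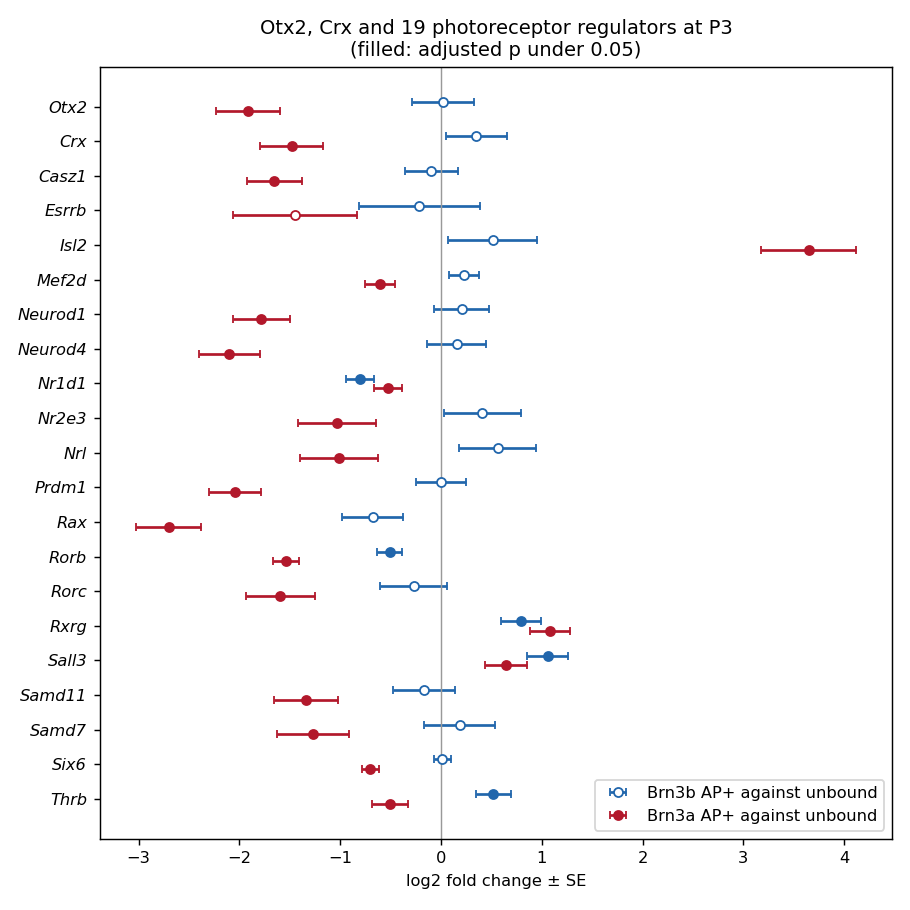
Log2 difference from unbound cells at P3 of Otx2, Crx and the 19 regulators in Brn3b AP-positive cells (blue) and Brn3a AP-positive cells (red), with bars of 1 SE; filled points passed an adjusted p of 0.05. Otx2, Crx, Prdm1, Neurod4 and Neurod1 lie near 0 in Brn3b cells and below -1 in Brn3a cells, and Isl2 lies at 3.65 in Brn3a cells.

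Other cell type lists moved between the same fractions, and their part in the Otx2 and Crx results was not tested. The summed level of the 18 ganglion cell genes was 1887 to 2226 CPM in Brn3b KO cells and 4612 to 6647 CPM in Brn3b HET cells, against 8254 to 11586 CPM in Brn3a KO cells and 10423 to 11266 CPM in Brn3a HET cells. The 14 microglia and macrophage genes summed to 1243 to 1616 CPM in Brn3b KO cells and 2631 to 3241 CPM in Brn3b HET cells, against 3798 to 4685 CPM in the Brn3a cells and 9.10 to 32.0 CPM in unbound P3 cells. All 18 and all 14 were lower in Brn3b than in Brn3a AP-positive cells, where 22.4% of all genes were lower. Of 19 retinal progenitor genes, 16 were higher and 1 was lower (22.4% of all genes higher), with sums of 1848 to 3426 CPM in Brn3b KO cells and 1309 to 1566 CPM in Brn3b HET cells, against 1110 to 1293 CPM in Brn3a cells. Of 18 amacrine and horizontal cell genes, 13 were higher and 1 was lower (median log2 difference 1.33), with sums of 1106 to 1258 CPM in Brn3b KO cells and 690 to 699.9 CPM in Brn3b HET cells, against 203 to 420 CPM in Brn3a KO cells and 252 to 264 CPM in Brn3a HET cells. Of 16 tested bipolar cell genes, 5 were higher and 2 lower, and their sums overlapped, at 312 to 394 CPM in Brn3b cells and 333 to 353 CPM in Brn3a cells. Of 12 tested retinal pigment epithelium genes, 5 were higher and 3 lower. The regulators themselves summed to 5121 to 7107 CPM in Brn3b KO cells and 4275 to 5540 CPM in Brn3b HET cells, against 1169 and 2862 CPM in the 2 Brn3a KO libraries and 1850 to 1908 CPM in Brn3a HET cells.

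Between ages, most listed photoreceptor genes were higher at P3, as Otx2 and Crx were. In unbound cells, 13 of 19 regulators were higher at P3 than at E15 and 2 were lower, Thrb and Six6 (15.6% of genes higher, 17.5% lower). Of the phototransduction genes, 34 of 40 were higher and none lower (median log2 difference 4.14). Nrl averaged 381 CPM at P3 and 4.27 CPM at E15, and Nr2e3, the nuclear receptor that represses cone genes in rods, 354 CPM at P3 and 0.0425 CPM at E15. Otx2 and Crx were already at 261 to 300.0 CPM and 178 to 179 CPM in E15 unbound cells in which Nr2e3 was near 0. Thrb, a thyroid hormone receptor of cones, averaged 33.8 CPM at P3 and 115 CPM at E15 (-1.77 ± 0.21). In Brn3b AP-positive cells, 37 of 40 phototransduction genes were higher at P3 than at E15 in HET and 37 of 40 in KO cells (16.6% and 14.4% of genes higher). None of the 19 regulators and none of the 40 phototransduction genes passed in any of the 3 KO against HET comparisons (edgeR). At an unadjusted p under 0.05 it was 1 regulator in each comparison and 0 phototransduction genes, and DESeq2 called 1 of each list in Brn3b KO against HET cells at E15 and 0 in the other comparisons.

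Otx1 was the scarce member in the retina and moved the other way with age. It stood at 0.113 to 1.52 CPM in the 12 P3 libraries, from 4 to 51 counts each, against 4.84 to 6.19 CPM in the 4 E15 AP-positive libraries and 3.91 and 2.10 CPM in the 2 E15 unbound ones. Every P3 library was below every E15 library. On the log2 scale its P3 against E15 difference was -3.10 ± 0.66 in Brn3b HET cells (edgeR adjusted p = 0.00721), -2.55 ± 0.64 in Brn3b KO cells (edgeR adjusted p = 0.0165) and -2.92 ± 0.69 in unbound cells (edgeR adjusted p = 0.00556). The last call was lost without the E15 unbound Brn3b HET library (edgeR adjusted p = 0.0717). The largest moves were to -4.03 for HET without the first Brn3b HET library at P3, to -3.29 for KO without the second Brn3b KO library at P3, and to -3.81 for unbound cells without the Brn3b KO library at P3. The KO call was lost without the first Brn3b KO library at P3 (adjusted p = 0.108) or either Brn3b KO library at E15 (adjusted p = 0.0591 and 0.0544), and the HET call without the second Brn3b HET library at P3 (adjusted p = 0.0513). Otx1 did not differ past the threshold between AP-positive and unbound cells at P3 (0.73 ± 0.55) or E15 (0.90 ± 0.71). At P3 it did pass without the unbound Brn3b KO library (1.64, edgeR adjusted p = 0.0205). In Brn3a KO cells it stood at 1.52 and 0.550 CPM, against 0.304 and 0.279 CPM in Brn3a HET cells, which are 50 and 18 counts against 10 and 10. That difference of 1.83 ± 0.68 had an adjusted p of 1 (edgeR). The Brn3b KO against HET difference of Otx1 was 0.60 ± 0.64 at P3 and 0.04 ± 0.59 at E15 on the log2 scale.

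The genes whose log2(CPM + 1) followed each member most closely were ranked by Pearson correlation over the 18 retinal libraries, among 11392 named genes of at least 5 CPM on average. These libraries share ages, fractions and depth, so the values describe their order and carry no test. For Otx2 the closest were Neurod4 (r = 0.979), Neurod1 (0.978), Prdm1 (0.978), Rassf8 (0.977) and Otop3 (0.974). For Crx they were Cdhr1 (0.994), a photoreceptor cadherin, Gnb3 (0.994), a cone G protein subunit, Doc2b (0.994), Ubap1l (0.991) and Mak (0.990), a kinase of photoreceptor cilia. For Otx1 they were Ccnd2 (0.936), a cyclin, Igfbp5 (0.934), Eef1g (0.933), Eif4e3 (0.927) and Snx6 (0.926). Otx2 and Crx followed each other at r = 0.956, whereas Otx1 ran against Otx2 (-0.682) and Crx (-0.816). By Spearman correlation, none of the 5 genes named for Otx2, 2 of those for Crx and 1 of those for Otx1 were again among the closest 5, so the ranking among near-equal genes depends on the measure.

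By the estimated counts per transcript, Otx2-001 held 69.2% to 85.1% of Otx2 in each retinal library and 47.1% to 66.6% in each brain library. Otx2-003, which starts nearer the 3′ end of the gene, held 0.988% to 5.67% in retina and 7.30% to 27.1% in brain, with no overlap. Retinal libraries were read from one end (76 bases) and brain libraries from both (125 bases), so tissue and read type cannot be told apart here. In the retina, Crx was split between Crx-001 (40.1% to 70.5%) and Crx-003 (25.2% to 56.5%), whose starts differ. These shares are model estimates over transcripts that overlap.

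In the P3 brain, Otx2 was highest in the superior colliculus, where Otx1 was lowest. In CPM, the SC libraries held 179.7, 194 and 170.1 of Otx2, the LGN libraries 27.1, 32.8 and 67.8, and the pooled remaining sections 13.5 and 12.8. The 3 tissues did not overlap. Otx2 in SC was 4.25 times its LGN level (log2 difference 2.09 ± 0.28, edgeR adjusted p = 0.0016; 10.2% of genes passed). This fit is unpaired, and with a replicate block that joins same-numbered libraries the log2 difference was 2.19 and also passed. Otx2 in SC was 13.8 times the level of the remaining brain (log2 3.78 ± 0.37, edgeR adjusted p = 0.000494; 6.94% of genes passed). LGN exceeded the remaining brain by 1.69 ± 0.35 (edgeR adjusted p = 0.014; 10.9% of genes passed), a call that was lost without the first (1.73, edgeR adjusted p = 0.0629) or the second (1.66, edgeR adjusted p = 0.095) remaining-brain library. The pretectal area, a neighbour of SC, stood at 91.6 CPM in its single library. Per kb, Otx2 averaged 107 ± 7.86 in SC and Otx1 1.02 ± 0.404 (SD, n = 3).

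For Otx1 the SC libraries held 3.27, 1.83 and 3.79 CPM, the LGN libraries 10.8, 13.9 and 16.3 CPM, and the pooled remaining sections 9.33 and 9.39 CPM. SC was below both other tissues in every library, and LGN above the remaining brain in every library. Otx1 in SC fell by 2.19 ± 0.27 on the log2 scale against LGN (edgeR adjusted p = 0.000915) and by 1.65 ± 0.29 against the remaining brain (edgeR adjusted p = 0.00982). The second call was lost without the second remaining-brain library (edgeR adjusted p = 0.0528). LGN and the remaining brain differed by 0.55 ± 0.28, which did not pass (edgeR adjusted p = 0.242). With the replicate block, Otx1 in SC against LGN was at -2.21 and also passed. The pretectal library, at 28.2 CPM, held more Otx1 than any other library.

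Crx was at or near 0 in the brain. It had 7, 12 and 0 counts in the SC libraries, 0 in each of the 3 LGN libraries, 1 and 6 in the remaining brain and 5 in the pretectal area. Summed over libraries, this is 0.559 CPM, unscaled, in SC (exact Poisson 95% interval 0.337 to 0.873), 0.315 in the remaining brain (0.127 to 0.649) and 0.494 in the pretectal area (0.160 to 1.15). For the 0 counts in LGN the same interval ran to 0.1 CPM, unscaled, and the floor of 3 counts lies at 0.0814 CPM, unscaled. The intervals cover counting error only. Crx did not pass in any brain comparison (edgeR adjusted p = 0.137, 0.776 and 0.235). Its homeobox resembles that of Otx2, and whether single reads were shared between them was not tested.

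A list of midbrain and isthmus regulators, chosen with earlier results of these data known, was set beside the tissue labels. In SC against LGN, 15 of 23 were higher and 1 was lower (4.41% of genes higher, 5.78% lower), and in SC against the remaining brain 10 were higher and 4 lower (3.19% higher, 3.75% lower). Dmbx1, a homeobox gene of the developing midbrain, averaged 91.1 CPM in SC, 6.55 CPM in LGN and 3.84 CPM in the remaining brain. Pax7, a dorsal midbrain factor, averaged 139 CPM in SC, 0.734 CPM in LGN and 5.78 CPM in the remaining brain. The list summed to 1193 to 1357 CPM in SC, 690 CPM in the pretectal area, 107 to 140 CPM in LGN and 293 to 320 CPM in the remaining brain. A list of 15 thalamic regulators summed to 2087 to 2376 CPM in LGN, 1017 to 1337 CPM in SC, 1863 CPM in the pretectal area and 810 to 836 CPM in the remaining brain, and LGN was above every other library.

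Choroid plexus, where Otx2 is also made, was uneven among the brain libraries. The 16 choroid plexus genes summed to 102 to 116 CPM in SC, to 1155, 114 and 6027 CPM in the LGN libraries, to 317 and 666 CPM in the remaining brain, and to 102 CPM in the pretectal area. Most of the SC and pretectal sums came from 1 gene, Enpp2, at 82.5 CPM on average in SC and 78.8 CPM in the pretectal area. Ttr, the largest part of the LGN mean at 2115 CPM, was at 11.1 CPM in SC and 0.999 CPM in the pretectal area. Otx2 was at 67.8 CPM in the LGN library with the highest sum, 27.1 CPM in the one with the middle sum and 32.8 CPM in the one with the lowest. The part of choroid plexus in the Otx2 level of LGN was not tested. Without the third LGN library the LGN excess of Otx2 over the remaining brain was 1.19 (edgeR adjusted p = 0.00185). In SC against LGN, 10 of the 16 genes were lower, where 5.78% of all genes were lower. That count was 0 without the third LGN, the second SC or the third SC library, 1 without the first SC and 4 without the first LGN library.

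**Figure D5:**
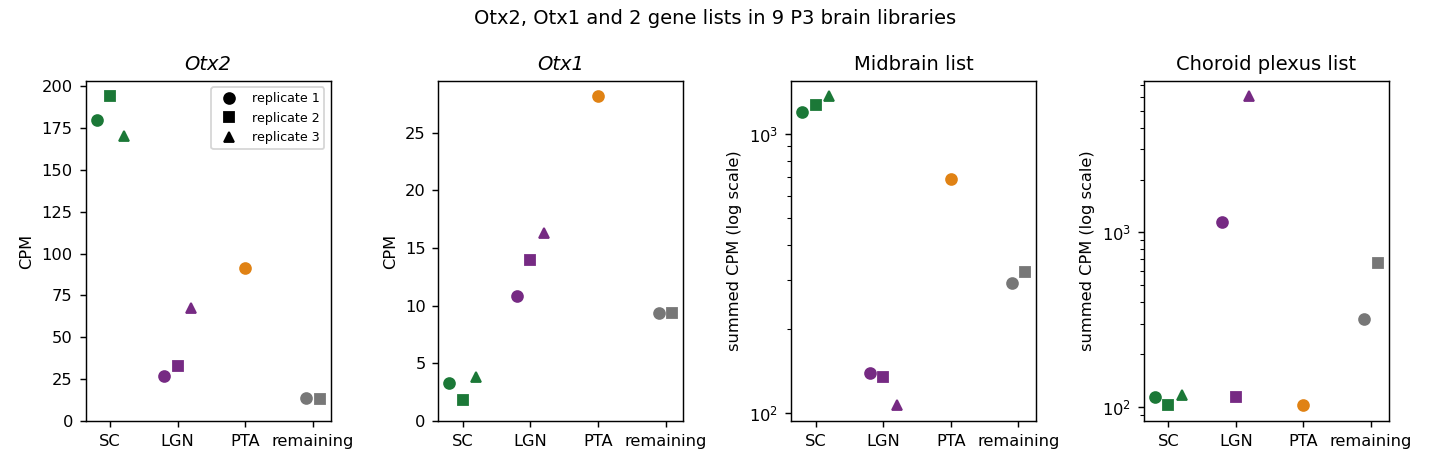
CPM of Otx2 and Otx1 (linear axes) and the summed CPM of the midbrain and choroid plexus lists (log axes) in each of the 9 brain libraries; each symbol is a library and its shape the replicate number, with PTA for the pretectal area. Otx2 is highest in the 3 SC libraries (170.1 to 194 CPM), Otx1 in the pretectal library (28.2 CPM), and the choroid plexus sum in the third LGN library (6027 CPM).

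Over the 9 brain libraries, among 11226 named genes of at least 5 CPM on average, the closest to Otx2 were Klhl13 (r = 0.984), Ptprm (0.978), Igsf3 (0.976), Robo2 (0.975), an axon guidance receptor, and Stk33 (0.972). The closest to Otx1 were Elavl2 (0.945), a neuronal RNA-binding protein, Endog (0.943), Wdr41 (0.931), Fgf12 (0.922) and Fam174a (0.921). Libraries of 4 tissues carry these values, which have no test. By Spearman correlation, none of the 5 genes named for Otx2 and 1 of the 5 named for Otx1 were again among the closest 5. Otx1 and Otx2 ran at r = -0.496.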

How the data were processed

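Gene expression was measured by stranded mRNA sequencing in 27 libraries. The authors deposited estimated counts per Ensembl transcript, not scaled between libraries. The submitters' processing notes name Trimmomatic 0.32, Bowtie2 2.2.1, eXpress 1.3.1 and build GRCm38.p3, with no order or settings. The deposited table also holds transcript length, in bases, and GC content, in percent, per the file headers.

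Counts were summed per gene and rounded. Some transcripts share exons and related genes share homeobox sequence, so the estimated counts can move between them. CPM were computed on TMM-scaled totals, separately for retina and brain. CPM per kb divided each transcript by its own length.

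Differences were tested with edgeR's quasi-likelihood test (edgeR 4.0.16, R 4.3.3) over all genes that filterByExpr kept at a minimum count of 10, with Benjamini-Hochberg adjustment and a threshold of 0.05. The fit of AP-positive against unbound cells held all 18 retinal libraries (16954 genes) with the unbound libraries pooled by age. The fit among AP-positive cells held 12 libraries (16673 genes), and that of brain 9 (15288 genes). A level of 3 counts was used as the detection floor, at 0.0791 to 0.105 CPM in retina and 0.221 to 0.300 CPM in brain. Alternatives were RLE scaling, no filter, a replicate block, DESeq2 1.42.0, only the compared groups, and leaving out each library of the compared groups in turn. The scripts were tested on simulated counts.

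The members and the gene lists were chosen with earlier results of these data known. Genes named from a list are its 4 with the smallest adjusted p in a comparison, and any photoreceptor regulator or choroid plexus gene. Rbp3 and Sag, whose upstream sequences are shown, were chosen after their values were seen. Genes named by likeness are the 5 with the highest Pearson r to a member. Group sources are the sample titles, since several source names repeat another gene or age. The pretectal area has 1 library and entered no comparison as a group.

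The reported fits, as designed, have no replicate block. Same-numbered AP-positive retinal libraries were not taken as pairs, and their correlations took both signs (10 of 30 over 0.1 and 8 under -0.1). Brn3b HET and KO libraries at E15 correlated at 0.369, and Brn3a HET and KO libraries at 0.175, yet these too were left unpaired. Whether an unbound library pairs with the AP-positive libraries of its purification was not examined, and the fits treat them as independent. In brain the titles give the numbers as M1 to M3, with no statement of what M is. The deviations of same-numbered SC and LGN libraries correlated at 0.288, 0.129 and 0.317, and those with the remaining brain at -0.0452 to 0.225. The reported brain fits nevertheless treat all of these libraries as independent. Same-numbered libraries were joined only in the alternative with a replicate block.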

Additional observations from a re-analysis of the deposited data

Results flagged for a closer look

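The AP-positive against unbound difference of Otx2 at P3 was 1.94 higher, on the log2 scale, in the Brn3b than in the Brn3a fraction, taken as Brn3b against Brn3a AP-positive cells (edgeR adjusted p = 0.00271, all 4 Brn3b libraries above all 4 Brn3a libraries). For Crx it was 1.84 (edgeR adjusted p = 0.00339, again 4 of 4). The comparison was chosen after the values were seen, and the sums of the ganglion cell and microglia lists differ between the same libraries, with their part not tested. The pretectal library, which entered no comparison, held Otx1 at 28.2 CPM and Otx2 at 91.6 CPM, against 9.33 and 9.39 CPM of Otx1 and 13.5 and 12.8 CPM of Otx2 in the remaining brain. It is a single library, and the difference was not tested. The AP-positive against unbound difference in Brn3b cells was 1.71 higher at P3 than at E15 for Otx2 and 1.74 for Crx (edgeR adjusted p = 0.0481 and 0.0445), a comparison added after the data were seen whose calls depend on single libraries. By Dixon's gap test, with a critical share of 0.829 for 4 libraries and 0.526 for 8, no library stood out in 15 combinations of a gene and a pool of libraries. These pools join genotypes, and the pool of 8 joins Brn3a with Brn3b cells. Differences between groups widen the range, so a library apart from its own group could go unseen. Pairs of libraries, such as the Brn3a KO pair whose replicates stood far apart, are too few for that test.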

How the results depend on the processing

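The 60 member differences (3 genes in 20 comparisons) were each recomputed under 7 to 22 alternatives, 739 values in all. Direction and side of the threshold held in 646, a call was lost in 45 and gained in 14, and the sign turned in 34. For the results and settings below the cause was not tested. Depth limits Otx1 in P3 retina (4 to 51 counts) and Crx in brain (0 to 12 counts). With 2 libraries in most groups, leaving 1 out leaves a lone library that is assumed to vary like the other groups.

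Otx2 in Brn3b AP-positive against unbound cells at P3 lay at 0.02 and turned to -0.0050 without a filter, -0.091 with a replicate block and -0.010 in the fit of only the compared groups. Brn3b HET against Brn3a HET was called for Otx2 and Crx without a filter (1.86 and 1.72), by DESeq2 (1.82 and 1.69), in the fit of only the compared groups (1.86 and 1.72; adjusted p = 0.00467 and 0.00446) and with all 18 retinal libraries (1.86 and 1.72). Brn3b KO against Brn3a KO was not called in the fit of only the compared groups (2.01 and 1.95; adjusted p = 0.0681 and 0.0767).

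Same-numbered libraries of different groups deviated together weakly, with correlations of -0.232 to 0.369 over 30 AP-positive retinal pairs and -0.0452 to 0.317 over 7 brain pairs. With 2 libraries a group the deviations mirror each other, so both replicate numbers of 2 retinal groups give the same value. Unbound libraries were not part of this check. All 3 pairs of SC and LGN libraries were over 0.1, yet the reported fits leave them unpaired, as they do the other libraries. With the replicate block, SC against LGN called 2316 genes against 1557, and Otx2 and Otx1 passed at 2.19 and -2.21 (adjusted p = 0.00226 and 0.00182). In retina, the block ended the calls of the AP-positive against unbound effect in Brn3b cells alone, P3 minus E15, at 1.61 for Otx2 and 1.66 for Crx (adjusted p = 0.0714 and 0.0686). It changed no other member call.

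Leaving out each library of the compared groups in turn changed a call or a sign in the following differences, given as the lowest and highest log2 value. AP-positive against unbound cells at P3 gave 0.39 to 1.64 for Otx1 and -0.95 to -0.41 for Crx. At E15 it gave -1.85 to -1.53 for Otx2 and -1.52 to -1.25 for Crx. The P3 minus E15 difference of that effect gave -0.72 to 0.71 for Otx1, 0.35 to 0.88 for Otx2 and 0.42 to 0.96 for Crx. Brn3b AP-positive against unbound cells at P3 gave 0.52 to 1.88 for Otx1 and -0.13 to 0.10 for Otx2. The P3 minus E15 difference of the AP-positive against unbound effect in Brn3b cells alone gave -0.46 to 0.95 for Otx1, 1.52 to 1.85 for Otx2 and 1.58 to 1.85 for Crx. Unbound cells at P3 against E15 gave -3.81 to -2.37 for Otx1 and 1.22 to 1.42 for Otx2. Brn3b cells at P3 against E15 gave -4.03 to -2.56 in HET and -3.29 to -2.07 in KO for Otx1. Brn3a KO against HET gave -1.11 to 0.95 for Otx2 and -1.30 to 0.81 for Crx. Brn3b KO against HET gave -0.14 to 1.52 for Otx1 at P3, and -0.10 to 0.24 for Otx1 and -0.46 to 0.18 for Otx2 at E15. The Brn3b minus Brn3a difference of the KO effect gave -0.51 to 1.55 for Otx2 and -0.45 to 1.66 for Crx, and the P3 minus E15 difference gave -0.19 to 1.47 for Otx1 and -0.27 to 0.29 for Crx. Brn3b KO against Brn3a KO gave -0.86 to 0.80 for Otx1, 1.32 to 3.40 for Otx2 and 1.25 to 3.38 for Crx. In brain, LGN against the remaining brain gave 1.19 to 1.94 for Otx2, and SC against it -1.86 to -1.40 for Otx1.

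The number of all genes called moved by over 1.5 times in several comparisons. In the fit of only the compared groups it was 866 against 4467 for AP-positive against unbound cells at E15, 0 against 569 for Brn3b KO against HET at P3, 22 against 308 at E15, 3173 against 642 for HET against HET, 3827 against 5994 for KO against KO and 2949 against 4809 for the ages of Brn3b HET cells. Brn3a KO against HET called 3 genes, 0 with the block and 57 by DESeq2, which called 1549 and 807 genes for Brn3b KO against HET at P3 and E15. Without 1 library the count fell as low as 31 from 642 for HET against HET (first Brn3a HET library), 1 from 569 for Brn3b KO against HET at P3 (second KO library), 83 from 308 at E15 (second KO library), 686 from 4467 for AP-positive against unbound cells at E15, 1284 from 2969 for the P3 minus E15 difference of that effect, 154 from 1165 for the same in Brn3b cells alone and 2766 from 5616 for unbound cells between ages (unbound Brn3b HET library at E15 in these 4). It was 2687 against 5994 for KO against KO (first Brn3a KO library), 2849 against 4809 for the ages in Brn3b HET cells (second P3 library) and 2302 against 4240 in KO cells (first E15 library). In brain it was 770 against 1557 for SC against LGN (second SC library), 859 against 1672 for LGN and 467 against 1061 for SC against the remaining brain (second remaining-brain library in both). The shares of all genes passing move with these counts.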
